A study of Mus musculus with 8 samples.

Results

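The Hox genes of the mouse were examined in chromatin accessibility profiles (ATAC-seq, in which a transposase inserts sequencing adapters into open DNA) of 4 melanoma cell lines. All 39 protein-coding genes with a Hoxa, Hoxb, Hoxc or Hoxd symbol were taken: 11 of the Hoxa cluster on chromosome 6, 10 of Hoxb on chromosome 11, 9 of Hoxc on chromosome 15 and 9 of Hoxd on chromosome 2. Of the 148664 regions in the authors' count table, 89 lay inside a Hox gene or had a Hox gene as the protein-coding gene with the nearest end, within 20 kb. They comprised 25 regions in Hoxa, 28 in Hoxb, 23 in Hoxc and 13 in Hoxd. A region is called by its gene and its order from the Hox13 side of the cluster, as in Hoxb4-r2. In all, 34 genes had at least 1 region, and 5 were the nearest gene of none (Hoxa2, Hoxa6, Hoxd4, Hoxd11 and Hoxd12). Of the regions, 54 lay inside a Hox gene and 20 over an end of one.

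Lines 112 and 113 were labelled STAT3 knockout (Stat3∆), and lines 119 and 73 wild type (Stat3fl, the floxed allele). All 4 came from lymph node cell suspensions, which hold host cells too, of mice with cutaneous melanoma that arose at about 25 to 30 weeks of age. The growth protocol speaks of pools of cell lines, while the sample labels call each line a clone. The oncogene behind the melanoma and the driver of the Stat3 deletion are not given in the sources used here. The titles carry a number after the letter p (18, 44, 14 and 68 for lines 112, 113, 119 and 73), whose meaning is not stated. Each line gave 2 libraries of 50000 cells, labelled biological replicates. Nothing states that these were separate cultures, so p-values between lines measure the spread between libraries, which may be technical.

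Hox genes encode homeodomain transcription factors that give cells their position along the head-to-tail axis. Within a cluster the genes lie in the order of their use: the low paralog numbers act in the hindbrain and neck, the middle ones in the trunk, and the high ones in the lower trunk, the tail and the ends of the limbs. Polycomb complexes keep the unused part of a cluster repressed and trithorax proteins keep the used part active, and skin fibroblasts retain the Hox pattern of the place they came from.

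Total counts per library ranged from 2697546 (line 112 replicate 2) to 7464336 (line 119 replicate 1), and the median count of a Hox region from 12 to 48. Hox regions held 0.0311% to 0.0827% of the counts in lines 112, 113 and 119, and 0.11% and 0.126% in line 73. Levels are given in CPM, counts per 1000000 on library sizes scaled by edgeR's TMM method. The strongest region at an end of Stat3 had 25.9 to 38.5 CPM over the knockout libraries and 18.2 to 38.9 CPM over the others (log2 fold change 0.36, adjusted p 0.856 by edgeR), and openness there does not check the labels. The libraries of line 112 stood apart at Hox: 61 of 89 regions were lower in replicate 1, with a median log2 ratio of replicate 1 to replicate 2 of -0.33 against 0.01 over all regions. In line 73 that ratio was 0.26 at Hox, against 0.02.

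The promoters of 5 Hox genes are shown because a region over each start carries a result below. Each is the 250 bases before the annotated start (RefSeq, GRCm38.p6), 5′ to 3′ on the gene's strand, with CpG dinucleotides, the sites of DNA methylation, in capitals. Hoxa3 was highest in line 73 and lowest in line 119, Hoxa5 was most open in line 112, Hoxb4 was open in every line, Hoxd9 was open in line 73, and Hoxd13 was weak and higher in both knockout lines.
Hoxa3 promoter, chr6:52213068-52213317, minus strand: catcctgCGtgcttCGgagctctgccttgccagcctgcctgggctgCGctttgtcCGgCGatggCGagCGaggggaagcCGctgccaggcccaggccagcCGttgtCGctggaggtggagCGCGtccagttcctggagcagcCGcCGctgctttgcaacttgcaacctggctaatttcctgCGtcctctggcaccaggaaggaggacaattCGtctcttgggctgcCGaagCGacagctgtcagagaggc
Hoxa5 promoter, chr6:52204588-52204837, minus strand: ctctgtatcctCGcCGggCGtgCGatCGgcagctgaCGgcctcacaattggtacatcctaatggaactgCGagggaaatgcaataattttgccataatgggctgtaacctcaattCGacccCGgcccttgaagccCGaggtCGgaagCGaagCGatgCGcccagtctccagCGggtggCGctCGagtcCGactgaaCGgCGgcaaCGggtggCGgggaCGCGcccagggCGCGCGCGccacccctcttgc
Hoxb4 promoter, chr11:96318017-96318266, plus strand: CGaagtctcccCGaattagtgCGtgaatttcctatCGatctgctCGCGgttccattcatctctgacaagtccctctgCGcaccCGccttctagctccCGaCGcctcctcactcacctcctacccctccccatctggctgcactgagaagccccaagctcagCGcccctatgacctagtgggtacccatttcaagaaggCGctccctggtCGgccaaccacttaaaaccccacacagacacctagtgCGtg
Hoxd9 promoter, chr2:74697513-74697762, plus strand: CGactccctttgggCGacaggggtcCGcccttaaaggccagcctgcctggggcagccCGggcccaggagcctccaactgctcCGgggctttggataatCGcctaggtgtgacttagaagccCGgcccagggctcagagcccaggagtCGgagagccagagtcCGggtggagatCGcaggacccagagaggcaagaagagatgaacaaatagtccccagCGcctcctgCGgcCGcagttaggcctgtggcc
Hoxd13 promoter, chr2:74667975-74668224, plus strand: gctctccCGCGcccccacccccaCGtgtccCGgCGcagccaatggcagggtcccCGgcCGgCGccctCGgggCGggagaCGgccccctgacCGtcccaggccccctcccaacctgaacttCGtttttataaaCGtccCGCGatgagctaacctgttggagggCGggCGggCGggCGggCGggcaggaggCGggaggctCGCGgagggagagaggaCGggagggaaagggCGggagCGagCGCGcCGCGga
They held 18, 28, 14, 13 and 31 CpG in that order. Over the 24 promoters of 22 Hox genes in the RefSeq table the median was 12.5 CpG, against 6.0 over all 32851 promoters, and the median GC share was 58.6% against 52.4%. Hoxa13, a gene of digits and genitalia, had the most with 35, and the outer of the 2 listed Hoxd11 promoters the fewest with 2.

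Short motifs were searched in these promoters on both strands. The E-box CACGTG was found in 4, those of Hoxd1, Hoxd10, Hoxd13 and 1 of Hoxd11 (16.7% against 6.02% of all promoters). The STAT motif TTCNNNGAA was found in 1, that of Hoxd4 (4.17% against 7.02%). The C/EBP motif TTGCNNAA was found in 2 (8.33% against 9.56%), the AP-1 motif TGANTCA in 1 (4.17% against 6.75%) and the Meis motif TGACAG in 2 (8.33% against 15.9%). The Hox-Pbx motif TGATTNAT was found in 2 (8.33% against 2.82%), the homeodomain motif TAATTA in 2 (8.33% against 4.84%) and the core of the CTCF motif in 0 (0.551% of all). A match is a run of letters and does not show binding.

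Wild-type line 73 was the most open line in all 4 clusters. The summed level of the 25 Hoxa regions was 522 and 455 CPM (line 73), 289 and 366 CPM (line 112), 169 and 151 CPM (line 113) and 70.8 and 71.1 CPM (line 119). The lines did not overlap, and the knockout lines lay between the wild-type lines. Hoxb summed to 308 and 217 CPM (line 73), 168 and 149 CPM (line 113), 134 and 143 CPM (line 112) and 94.3 and 100 CPM (line 119). Again no 2 lines overlapped, although the libraries of line 73 lay far apart. Hoxc summed to 435 and 387 CPM (line 73), 64 and 106 CPM (line 112), 84.8 and 78.7 CPM (line 119) and 54.8 and 50.8 CPM (line 113). Line 73 stood alone here, and lines 112 and 119 overlapped. Hoxd summed to 147 and 146 CPM (line 73), 52.6 and 72.9 CPM (line 112), 50.7 and 50.8 CPM (line 119) and 40.1 and 42.1 CPM (line 113). Line 73 was again separate, and the means of lines 112 and 119 differed by less than the SD of line 112. From the highest to the lowest line the means fell 6.89-fold in Hoxa (line 73 to 119), 2.69-fold in Hoxb (73 to 119), 7.78-fold in Hoxc (73 to 113) and 3.57-fold in Hoxd (73 to 113). As log2 ratios these were 2.78 ± 0.14, 1.43 ± 0.36, 2.96 ± 0.14 and 1.83 ± 0.05 (SD from 2 libraries per line). The sums are descriptions, without a test. More open cells and more openness per cell cannot be told apart in such bulk libraries.

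**Figure D1:**
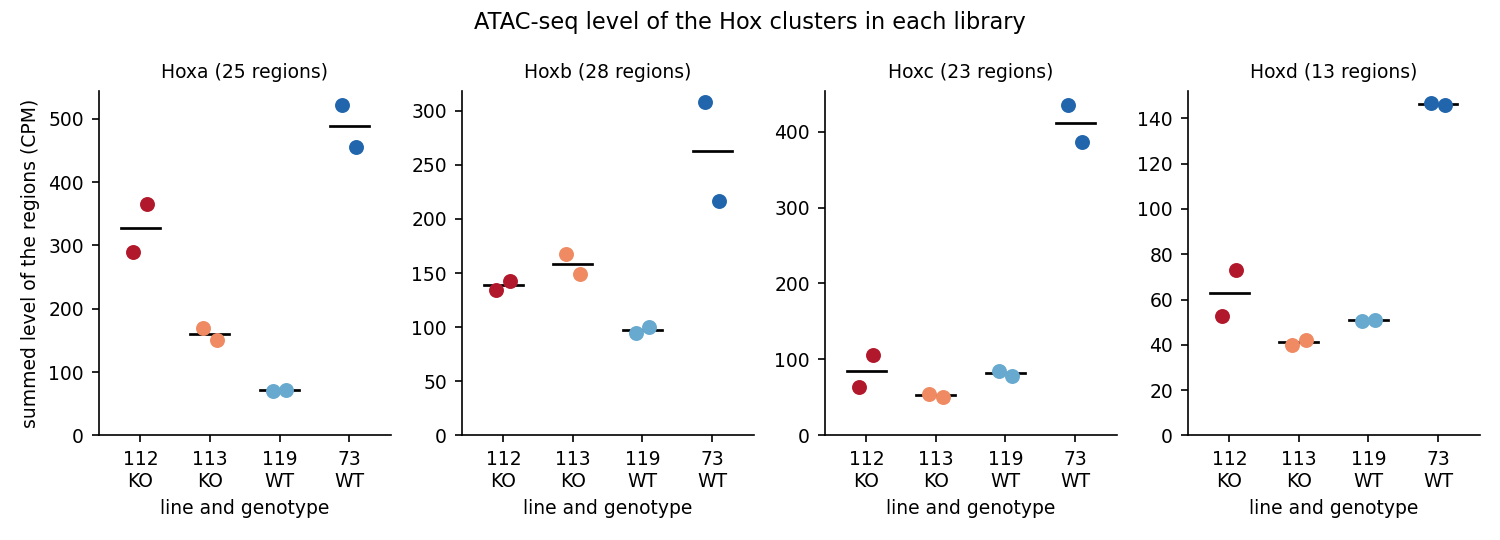
Summed level of the regions of each Hox cluster (vertical axis, CPM, linear from 0) in the 2 libraries of each line (points) with the line mean. Both points of line 73 lie above all others in every panel, and line 119 is lowest in Hoxa, at 70.8 and 71.1 CPM.

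Whole chromosomes moved with part of these differences and against others. The weak regions of chromosome 6, the chromosome of Hoxa, had a log2 offset of 0.57 and 0.52 in line 112 and of -0.39 and -0.42 in line 119. Those of chromosome 15, with Hoxc, had 0.29 and 0.21 in line 73, and those of chromosome 11, with Hoxb, 0.18 and 0.09. In line 73, the line highest in all clusters, chromosome 6 had -0.11 and -0.04. Chromosome 2, with Hoxd, had -0.22 and -0.15 in line 73 and 0.2 and 0.23 in line 119. With the offsets removed, an alternative chosen after seeing the data, Hoxa kept the order of the lines, with means of 514, 224, 169 and 93.9 CPM in lines 73, 112, 113 and 119. Hoxc then had 346, 89.3, 56.5 and 86.3 CPM in the same line order. The part of chromosome copy number was not tested.

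Each pair of lines was compared region by region with edgeR's quasi-likelihood test, with p-values adjusted over the 140329 regions that passed the filter on low counts and a threshold of 0.05. Of the Hox regions 88 passed, and 1 did not. Line 73 was higher than line 119 at 70 Hox regions and lower at 3 (83% called, against 56.9% of all regions, 29.4% of all being higher in line 73 and 27.5% lower). It was higher than line 113 at 62 and lower at 4 (75% against 52.2% of all, 26.5% higher and 25.8% lower). It was higher than line 112 at 53 and lower at 9 (70.5% against 49.9%, 26.1% higher and 23.8% lower). These comparisons share the libraries of line 73, and in each the Hox share was above the background. Line 112 was higher than line 119 at 46 and lower at 5 (58% against 45.8%, 22.2% higher and 23.5% lower), and all 24 tested Hoxa regions were among those higher. Line 113 was higher than line 119 at 28 and lower at 13, a share of 46.6% that was below the background of 58.9% (30.2% higher and 28.8% lower). The knockout lines differed at 24 Hox regions (27.3% against 23.8%), or at 15 without line 113 replicate 1. Line 112 was the higher at 20 of the 24 (22.7% of the Hox regions against 8.24% of all) and the lower at 4 (4.55% against 15.6%), and 16 of these 20 lay in Hoxa, the cluster whose chromosome had the offset in line 112.

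Line 73 was higher than each of the other lines at 49 Hox regions, 55.7% against 13.2% of all regions. These were 22 of the 23 Hoxc regions, 10 of 24 in Hoxa, 11 of 28 in Hoxb and 6 of 13 in Hoxd. It was lower than each at 1, Hoxb9-r4 (1.14% against 10.2%). Line 119 was lower than each other line at 20, of which 14 lay in Hoxa and 6 in Hoxb (22.7% against 4.86%), and higher at 1, Hoxd3-r4 (1.14% against 11%). The knockout lines had few such regions. Line 112 was higher at 2, Hoxa5-r1 and Hoxd10-r1 (2.27% against 1.76%), and lower at 0 (1.28% of all). Its count was 4 without line 112 replicate 1, and 1 without line 113 replicate 1, line 119 replicate 2 or line 73 replicate 1. Line 113 was higher at 1, Hoxb4-r1 (1.14% against 7.26%), and lower at 3, Hoxa3-r3, Hoxa4-r3 and Hoxc6-r1 (3.41% against 2.65%). In both directions together these 4 became 1 without line 113 replicate 1 and 2 without line 113 replicate 2.

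**Figure D2:**
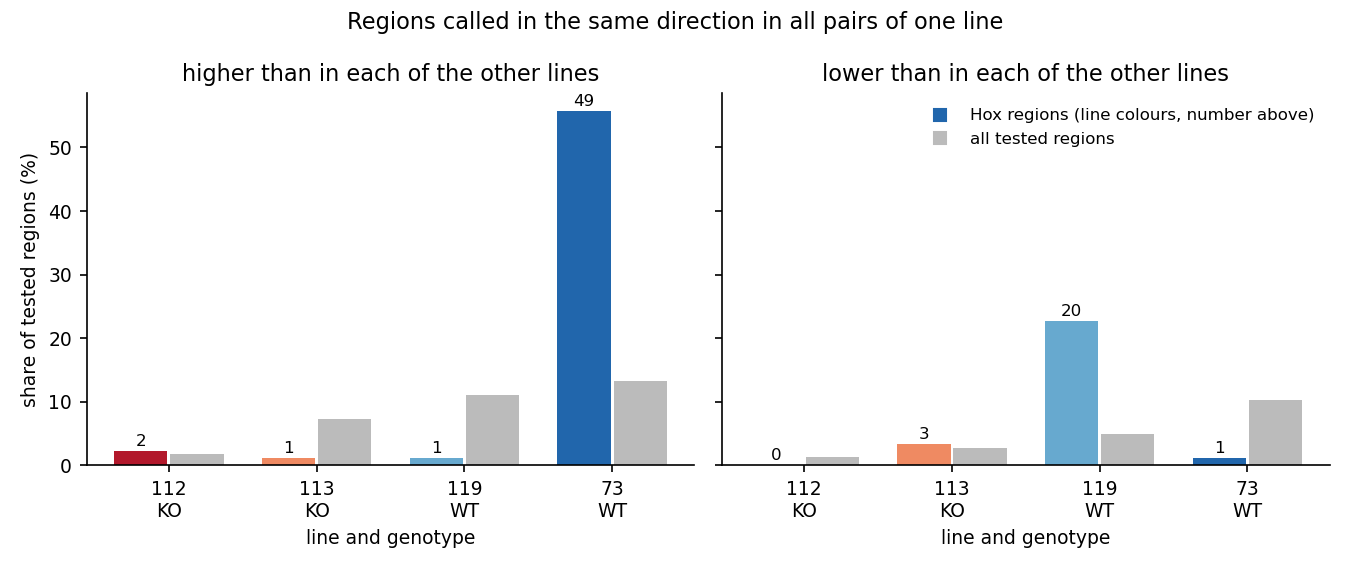
Share of tested regions (vertical axis, %, linear) called higher or lower in a line than in each of the other lines, for the 88 Hox regions and for all 140329 regions. The Hox share of line 73 reaches 55.7% for higher calls, and that of line 119 reaches 22.7% for lower calls.

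Hoxa, whose genes serve the neck, thymus, trunk and limbs, had a graded order of the lines at Hoxa9 and Hoxa7. Hoxa3-r1 (chr6:52212551-52213618) covers the annotated start of Hoxa3, a gene needed for the thymus and parathyroid, and holds the whole Hoxa3 promoter printed above. The region lies in the middle of the cluster, 47.8 kb from the outer end of Hoxa13, between Hoxa7-r1 at 43.5 kb and Hoxa5-r1 at 56.8 kb. It had 44.3 and 36.9 CPM (line 73), 18.9 and 20.3 CPM (line 112), 19.7 and 16.4 CPM (line 113) and 4.27 and 4.56 CPM (line 119). The knockout lines overlapped between the wild-type lines, of which line 73 was highest and line 119 lowest. The log2 fold change of line 112 over 113 was 0.11 (SE 0.23, adjusted p 0.765) and that of line 119 over 73 was -3.2 (SE 0.24, adjusted p 1.04e-16), both by edgeR. Hoxa9-r2, 989 bp from Hoxa9, a gene known for its part in leukaemia, had the smallest spread over the lines among Hoxa regions of at least 10 CPM. It had 30.5 and 28.6 CPM (line 73), 19.1 and 20.9 CPM (line 112), 15.4 and 14 CPM (line 113) and 5.43 and 5.74 CPM (line 119). Line 73 was highest, followed by lines 112, 113 and 119, without overlap. Hoxa7, a trunk gene, had the largest range of the Hoxa genes: its only region had 31.2 and 32.5 CPM (line 73), 9.08 and 15.4 CPM (line 112), 6.57 and 4.84 CPM (line 113) and 2.07 and 2.87 CPM (line 119), a 12.9-fold difference between the means of lines 73 and 119.

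Of the 9 Hoxa genes with regions, 7 had their highest summed level in line 73, and 2, Hoxa5 and Hoxa13, in line 112. At Hoxa13 these lines overlapped, with sums of 36.3 and 52.6 CPM (line 112) and 48.4 and 32.8 CPM (line 73). Hoxa5, which patterns the lung and the neck-to-trunk boundary, departed from its neighbours. Hoxa5-r1 (chr6:52203312-52204802), over its start, had 13.5 and 26.8 CPM (line 112), 7.02 and 5.81 CPM (line 113), 6.2 and 6.25 CPM (line 119) and 6.4 and 4.17 CPM (line 73). Both libraries of line 112 lay above all others, though far from each other, and line 73 was the lowest line by its mean. The log2 fold changes of line 112 were 1.61 (SE 0.3) over line 113, 1.66 (SE 0.28) over line 119 and 1.88 (SE 0.32) over line 73, with edgeR adjusted p of 5.05e-05, 2.21e-06 and 1.55e-06. These calls held under each of the 14 alternatives in which the region was tested, but it was left out by the filter on a mean of 50 counts. With the chromosome offset removed the log2 fold changes fell to 1.0, 0.72 and 1.27 (edgeR adjusted p 0.0145, 0.0365 and 0.000979), and without line 112 replicate 2 to 1.11, 1.06 and 1.41. The next region, Hoxa4-r1 over an end of Hoxa4, 12021 bp from the start of Hoxa5, had 31 and 23.6 CPM (line 73), 13.5 and 24.6 CPM (line 112), 6.34 and 6.77 CPM (line 113) and 2.71 and 2.03 CPM (line 119), so line 73 was back among the highest. At the far end, Hoxa13-r3 over the start of Hoxa13 had 18.7 and 14.2 CPM (line 73), 7.68 and 18.8 CPM (line 112), 11.1 and 8.95 CPM (line 113) and 1.94 and 2.19 CPM (line 119). Line 112 overlapped with lines 73 and 113 there, and line 119 lay below the rest, with a log2 fold change of -2.99 (SE 0.35) against line 73 (edgeR adjusted p 1.39e-10).

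Regions along much of Hoxa set lines 112 and 73 against lines 113 and 119. Among them were Hoxa13-r1, Hoxa11-r1, Hoxa10-r1, Hoxa9-r1 and Hoxa7-r1, and others between Hoxa4 and the distal part of the long Hoxa3 gene. Hoxa4-r3 (chr6:52183628-52184488), inside the Hoxa3 gene and 5194 bp from Hoxa4, had 16.5 and 15.7 CPM (line 112), 15.9 and 15.6 CPM (line 73), 5.17 and 5.23 CPM (line 119) and 2.04 and 2.66 CPM (line 113). Lines 112 and 73 overlapped, and line 113 was lowest, with a log2 fold change of -1.14 (SE 0.38, adjusted p 0.00871) against line 119 by edgeR that had an adjusted p of 0.0914 without line 113 replicate 1. Hoxa3-r3 (chr6:52176832-52177598) had 6.05 and 12.3 CPM (line 112), 7.17 and 6.11 CPM (line 73), 2.33 and 4.73 CPM (line 119) and 1.36 and 1.69 CPM (line 113), again with line 113 lowest. Its difference to line 119 (-1.15, SE 0.48, adjusted p 0.0369 by edgeR) had an adjusted p of 0.18, 0.079 and 0.396 without line 113 replicate 1, line 113 replicate 2 and line 119 replicate 2. In all, 16 Hox regions were higher in each of lines 112 and 73 than in each of lines 113 and 119 (18.2% against 0.997% of all regions), 14 of them in Hoxa and the others Hoxb9-r6 and Hoxc4-r2. This split joins a knockout with a wild-type line. The reverse held at 0 Hox regions (2.04% of all). Chromosome 6, with Hoxa, had a log2 offset of 0.57 and 0.52 in line 112 and of -0.39 and -0.42 in line 119. These counts were made without removing that offset, and its part in the split was not tested.

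In Hoxb most regions were weak and the lines differed less. Its strongest region, Hoxb4-r2 (chr11:96318266-96319681), begins at the last base of the Hoxb4 promoter printed above. Hoxb4 is known for its role in blood stem cells. The region had 29 and 22 CPM (line 113), 27.4 and 21.1 CPM (line 73), 18.1 and 16.7 CPM (line 119) and 17.7 and 15.7 CPM (line 112). The genotypes overlapped, all 8 libraries had a peak, and the line means spanned 0.6 on the log2(CPM + 0.5) scale, the smallest span among Hoxb regions of at least 10 CPM. Of its 6 pairs of lines 4 passed the threshold, with edgeR adjusted p of 0.0202 to 0.0498. All 4 were lost with the abundance-dependent offset, where line 113 over 119, for example, moved from 0.55 to 0.12 on the log2 scale (edgeR adjusted p 0.566). Inside Hoxb3 and 2675 bp from Hoxb4 lay Hoxb4-r1 (chr11:96314564-96315592), which had 16.8 and 13.5 CPM (line 113), 2.79 and 7.08 CPM (line 112), 3.58 and 1.67 CPM (line 73) and 1.94 and 1.18 CPM (line 119). Both libraries of line 113 were above all others and were the only ones with a peak. The log2 fold changes of line 113 were 3.22 (SE 0.35) over line 119 and 2.5 (SE 0.37) over line 73, with edgeR adjusted p of 2.17e-11 and 4.07e-08. The difference from line 112 was smaller, at -1.69 (SE 0.33, adjusted p 9.87e-05) for line 112 over 113 by edgeR.

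Hoxb2, a gene of the hindbrain, followed another order. Its 3 regions summed to 47.4 and 31.1 CPM (line 73), 19.3 and 19.6 CPM (line 113), 7.21 and 13.5 CPM (line 112) and 2.2 and 4.05 CPM (line 119). No 2 lines overlapped, and line 113 rather than line 112 came next to line 73. Hoxb2, Hoxb3 and Hoxb4 each had 1 region that was higher in each of lines 113 and 73 than in each of lines 112 and 119 (3.41% against 3.84% of all regions), and 0 regions had the reverse (1.12% of all). Hoxb6, a trunk gene, was even among 3 lines, with means of 14.2, 15.6 and 14.8 CPM in lines 112, 113 and 119 and 34.1 CPM in line 73. Of the 10 Hoxb genes 8 were highest in line 73, and Hoxb4 and Hoxb5 in line 113. The ranges went from 2.01-fold for Hoxb8 to 12.6-fold for Hoxb2. Hoxb13, known for its role in the prostate, had 1 weak region, with 6.66 and 2.22 CPM (line 73), 3.96 and 4 CPM (line 112), 3.17 and 2.66 CPM (line 113) and 1.29 and 2.19 CPM (line 119), in which the range of line 73 held both libraries of lines 112 and 113.

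Around Hoxb9, a gene of the ribs and lower trunk, regions close to each other had different orders of the lines. Hoxb9-r4 (chr11:96265731-96266475), 4855 bp outside the gene, had 13.6 and 14 CPM (line 113), 14 and 12 CPM (line 112), 4.91 and 4.39 CPM (line 119) and 1.54 and 1.11 CPM (line 73). The knockout lines overlapped with each other above both wild-type lines, and a peak was called in all 4 knockout libraries and in line 119 replicate 1. The log2 fold changes over line 73 were 3.27 (SE 0.41) for line 112 and 3.35 (SE 0.4) for line 113, with edgeR adjusted p of 1.34e-09 and 1.82e-10. Hoxb9-r6, over an end of Hoxb9, had 38.7 and 29.7 CPM (line 73), 16.1 and 14.5 CPM (line 112), 5.69 and 8.1 CPM (line 119) and 6.8 and 6.53 CPM (line 113). There line 73 was highest and lines 113 and 119 overlapped at the bottom.

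Several microRNAs are coded within the clusters, and their mature sequences are shown because open regions lie beside or over them and because their seeds recur between clusters. The sequences (RefSeq, GRCm38.p6) have the seed, bases 2 to 8, in capitals.
mmu-miR-196a-5p: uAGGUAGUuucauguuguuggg
mmu-miR-196b-5p: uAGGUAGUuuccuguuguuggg
mmu-miR-10a-5p: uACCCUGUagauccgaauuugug
mmu-miR-10b-5p: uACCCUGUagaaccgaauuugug
mmu-miR-615-3p: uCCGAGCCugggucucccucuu
The miR-196 family, known to act on Hox mRNAs, shares the seed AGGUAGU, with Mir196b in Hoxa, Mir196a-1 in Hoxb and Mir196a-2 in Hoxc. The nearest Hox regions were Hoxa10-r2 at 2858 bp, Hoxb9-r4 at 523 bp and Hoxc9-r1 at 2284 bp. Hoxa10-r2 had means of 51.5, 20.3, 10.4 and 4.89 CPM in lines 73, 112, 113 and 119, and Hoxc9-r1 had 21.1, 6.21, 3.26 and 1.52 CPM, both highest in line 73. Hoxb9-r4, described above, was lowest in line 73. The miR-10 family shares the seed ACCCUGU. Mir10a lay 1058 bp from Hoxb4-r2, the region open in every line, and Mir10b 9825 bp from Hoxd3-r3. Mir615 lay inside Hoxc5-r2, which had 15.1 and 18.9 CPM (line 73) and 0.931 to 3.39 CPM elsewhere. The microRNAs themselves were not measured.

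**Figure D3:**
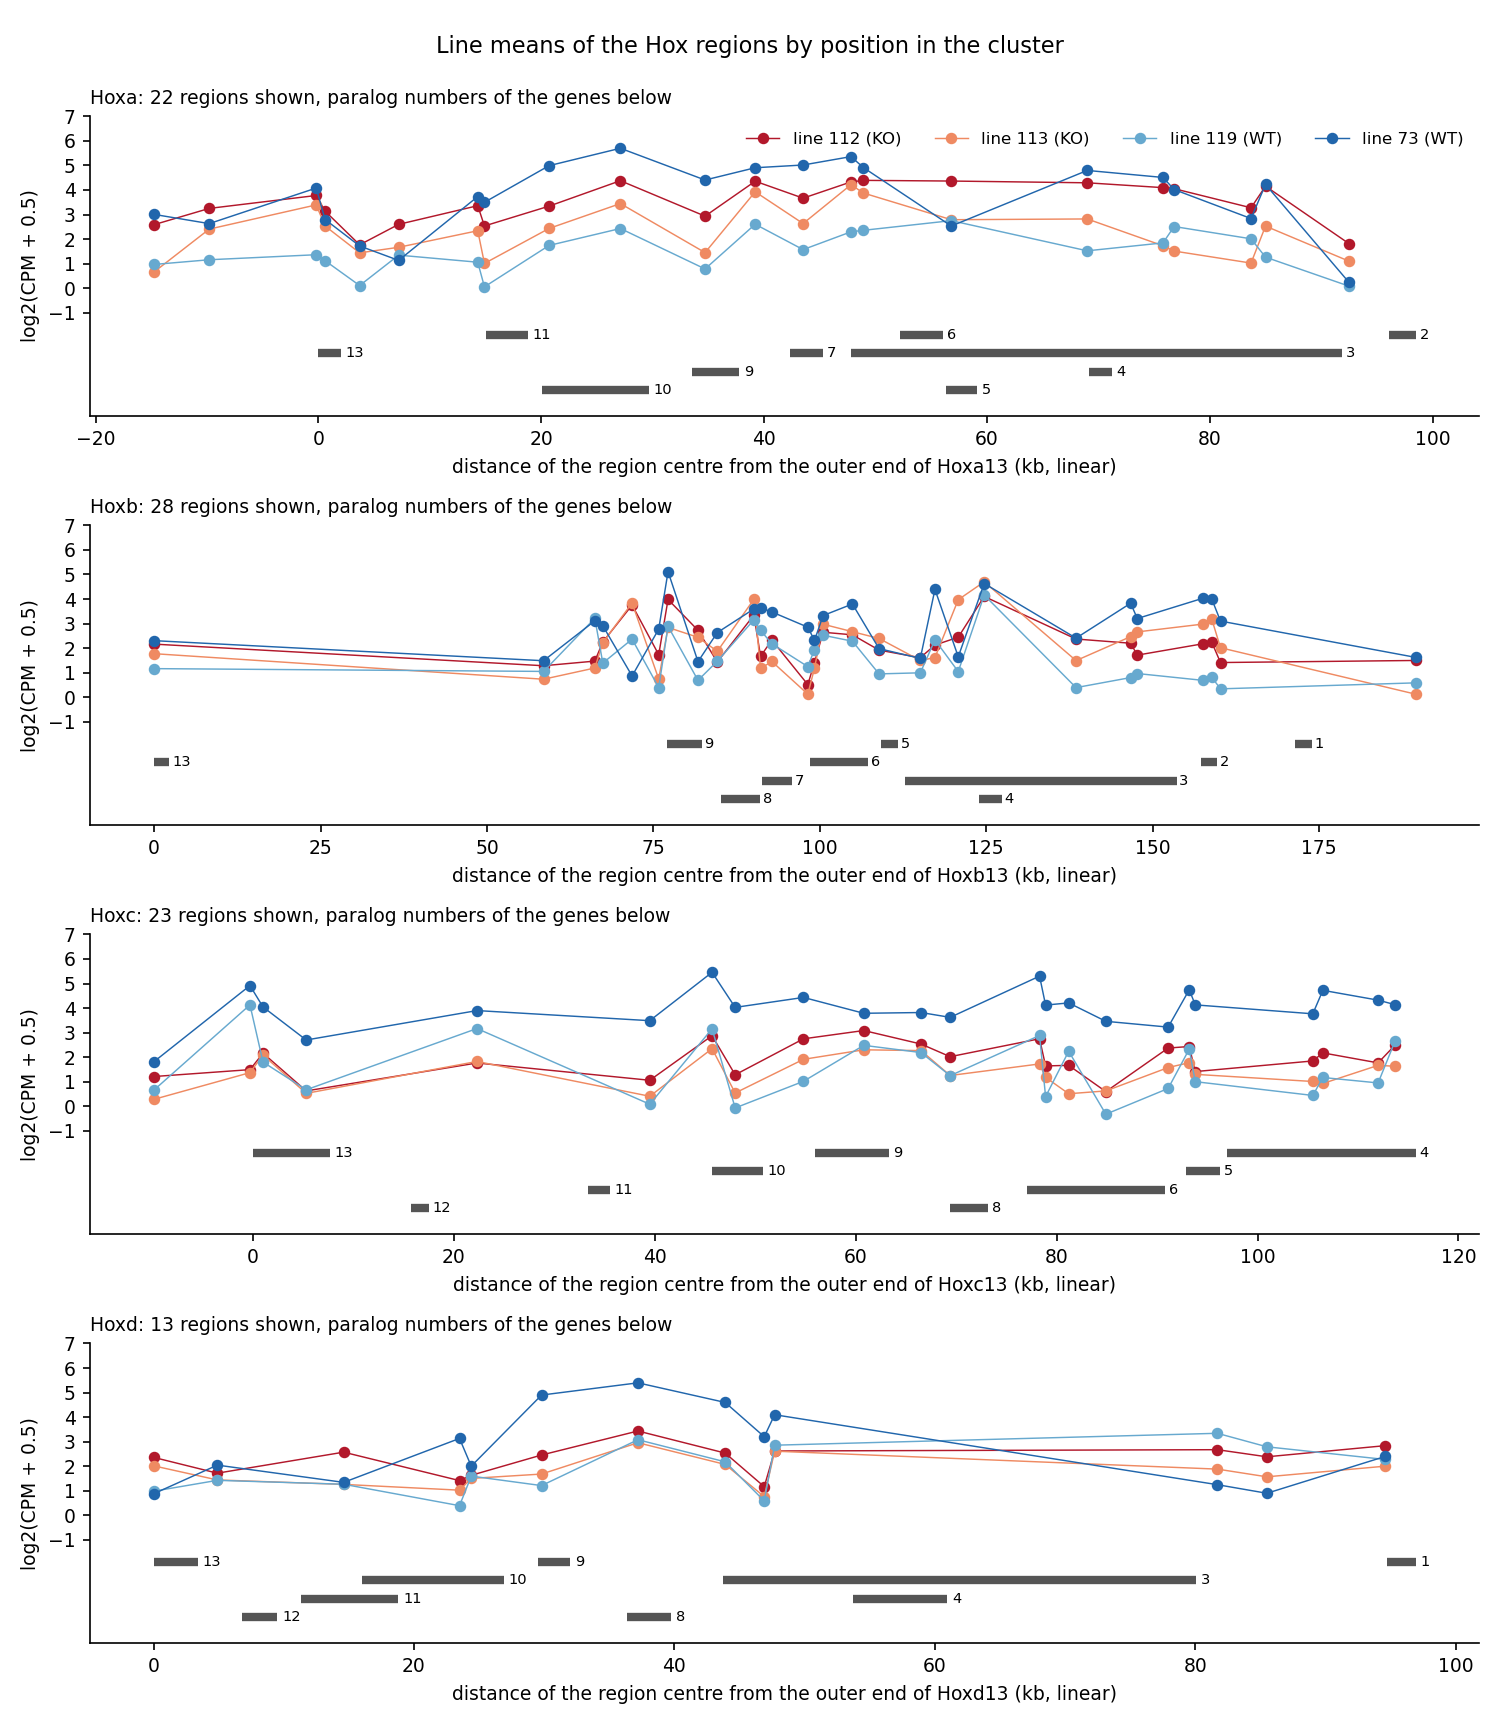
Mean level of each Hox region in each line (vertical axis, log2(CPM + 0.5)) against its distance from the Hox13 end of its cluster (horizontal axis, kb), with the genes marked by their paralog numbers, 1 gene and its regions not shown. Line 73 runs above the other lines along Hoxc and at Hoxd8 and Hoxd9, and falls to the level of lines 113 and 119 at Hoxa5.

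Hoxc, whose genes act from the neck to the tail and in skin appendages, was more open in line 73 from end to end. All 9 Hoxc genes were highest in line 73, from 4.29-fold above the lowest line at Hoxc8 to 19.3-fold at Hoxc11, a gene of the hindlimb level. Hoxc10-r1 (chr15:102966308-102967398), over an end of the neighbouring Hoxc10, was the strongest and had 49.7 and 37.2 CPM (line 73), 9.05 and 7.77 CPM (line 119), 5.35 and 8.31 CPM (line 112) and 4.08 and 5.08 CPM (line 113). Line 73 lay far above the rest, of which lines 119 and 112 overlapped. The log2 fold changes against line 73 were -2.7 (SE 0.27) for line 112, -3.25 (SE 0.28) for line 113 and -2.36 (SE 0.23) for line 119, with edgeR adjusted p of 1.39e-12, 3.33e-15 and 1.03e-12. Within Hoxc10, Hoxc10-r2 had 16.1 and 15.6 CPM (line 73) and 0 to 2.46 CPM elsewhere. The 0 was in line 119 replicate 2, where a count of 0 allows up to 3 counts, or 0.507 CPM, counting error only. In Hoxc6, a trunk gene, Hoxc6-r4 had 11 and 10 CPM (line 73) and 0.258 to 1.4 CPM elsewhere. Its log2 fold change of line 119 over 73, -5.04 (SE 0.5, adjusted p 8.89e-13) by edgeR, was the most negative among the 88 Hox regions.

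The median log2 fold change over the 23 Hoxc regions was -2.48 for line 112 over 73, -3.08 for line 113 over 73 and -2.55 for line 119 over 73, with 0 of 23 above 0 in each. Over all tested regions those medians were 0.08, -0.01 and -0.1. Between the other lines the Hoxc medians were 0.79 (line 112 over 113), 0.57 (112 over 119) and 0.03 (113 over 119). By paralog class line 73 exceeded the lowest line 9.26-fold at Hoxc4, 8.06-fold at paralogs 5 to 8 and 7.07-fold at 9 to 13. The exception among single regions was the outermost, Hoxc13-r1, with 1.79 and 4.17 CPM (line 73), 1.16 and 2.46 CPM (line 112), 0.775 and 1.35 CPM (line 119) and 0.453 and 0.968 CPM (line 113).

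At 2 regions of the Hoxc13 end, Hoxc13-r2 and Hoxc12-r1, line 119 joined line 73 above the knockout lines. Hoxc13-r2 (chr15:102920562-102921139) lies over an end of Hoxc13, a gene of hair and nail formation, and had 30.2 and 29.2 CPM (line 73), 17.2 and 16.7 CPM (line 119), 0.931 and 3.69 CPM (line 112) and 2.95 and 1.21 CPM (line 113). Both wild-type lines were above both knockout lines, which overlapped, and a peak was called in the 4 wild-type libraries and in none of the knockout libraries. Hoxc12-r1 had 14.6 and 14.2 CPM (line 73), 9.18 and 7.77 CPM (line 119), 3.17 and 2.9 CPM (line 113) and 2.09 and 3.69 CPM (line 112), the same arrangement. At Hoxc11-r1 line 119 was low again, with 0.775 and 0.338 CPM (line 119) against 12.3 and 9.17 CPM (line 73).

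In Hoxd the regions higher in line 73 than in each other line lay in the middle of the cluster: 1 each at Hoxd10, Hoxd9 and Hoxd8, and 3 at Hoxd3. Hoxd8-r1 (chr2:74704596-74706158), over the start of the trunk gene Hoxd8, was the strongest and had 44 and 39.2 CPM (line 73), 7.68 and 12.9 CPM (line 112), 8.79 and 7.09 CPM (line 119) and 7.25 and 7.26 CPM (line 113). Line 73 lay far above the rest, which overlapped. Its log2 fold changes against line 73 were -2.05 (SE 0.25) for line 112, -2.52 (SE 0.25) for line 113 and -2.38 (SE 0.23) for line 119, with edgeR adjusted p of 5.71e-10, 1.06e-12 and 8.57e-13. Hoxd9-r1, over the start of Hoxd9 and part of the promoter printed above, had 26.9 and 31.7 CPM (line 73), 4.42 and 5.54 CPM (line 112), 2.49 and 2.9 CPM (line 113) and 1.42 and 2.19 CPM (line 119), a 16.2-fold range of the means. Hoxd1, the gene at the other end, had the smallest range, 1.9-fold: Hoxd1-r1, over its start, had 4.65 and 8.62 CPM (line 112), 5.38 and 4.17 CPM (line 73), 4.27 and 4.39 CPM (line 119) and 3.85 and 3.14 CPM (line 113). Lines 112, 73 and 119 overlapped, and none of its pairs passed the threshold.

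Other Hoxd regions were highest in other lines. Hoxd3-r4 (chr2:74749617-74750166), 1346 bp outside Hoxd3, had 10.5 and 8.78 CPM (line 119), 6.52 and 5.23 CPM (line 112), 2.49 and 3.87 CPM (line 113) and 1.79 and 1.94 CPM (line 73). No 2 lines overlapped, with line 119 highest and line 73 lowest. The difference of line 112 to 119 was small (-0.7, SE 0.3, adjusted p 0.0475 by edgeR), and its adjusted p was 0.0529 to 0.291 when either replicate of line 112, either of line 119, or line 73 replicate 1 was left out. Hoxd10-r1 (chr2:74682567-74683067), inside Hoxd11, lay 244 bp from an annotated start of Hoxd11 and 1206 bp from an end of Hoxd10. It had 3.49 and 7.39 CPM (line 112), 1.28 and 2.78 CPM (line 73), 2.46 and 1.35 CPM (line 119) and 1.36 and 2.42 CPM (line 113). The excess of line 112 rested on its replicate 2, without which the edgeR adjusted p against lines 113, 119 and 73 was 0.286, 0.248 and 0.231.

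**Figure D4:**
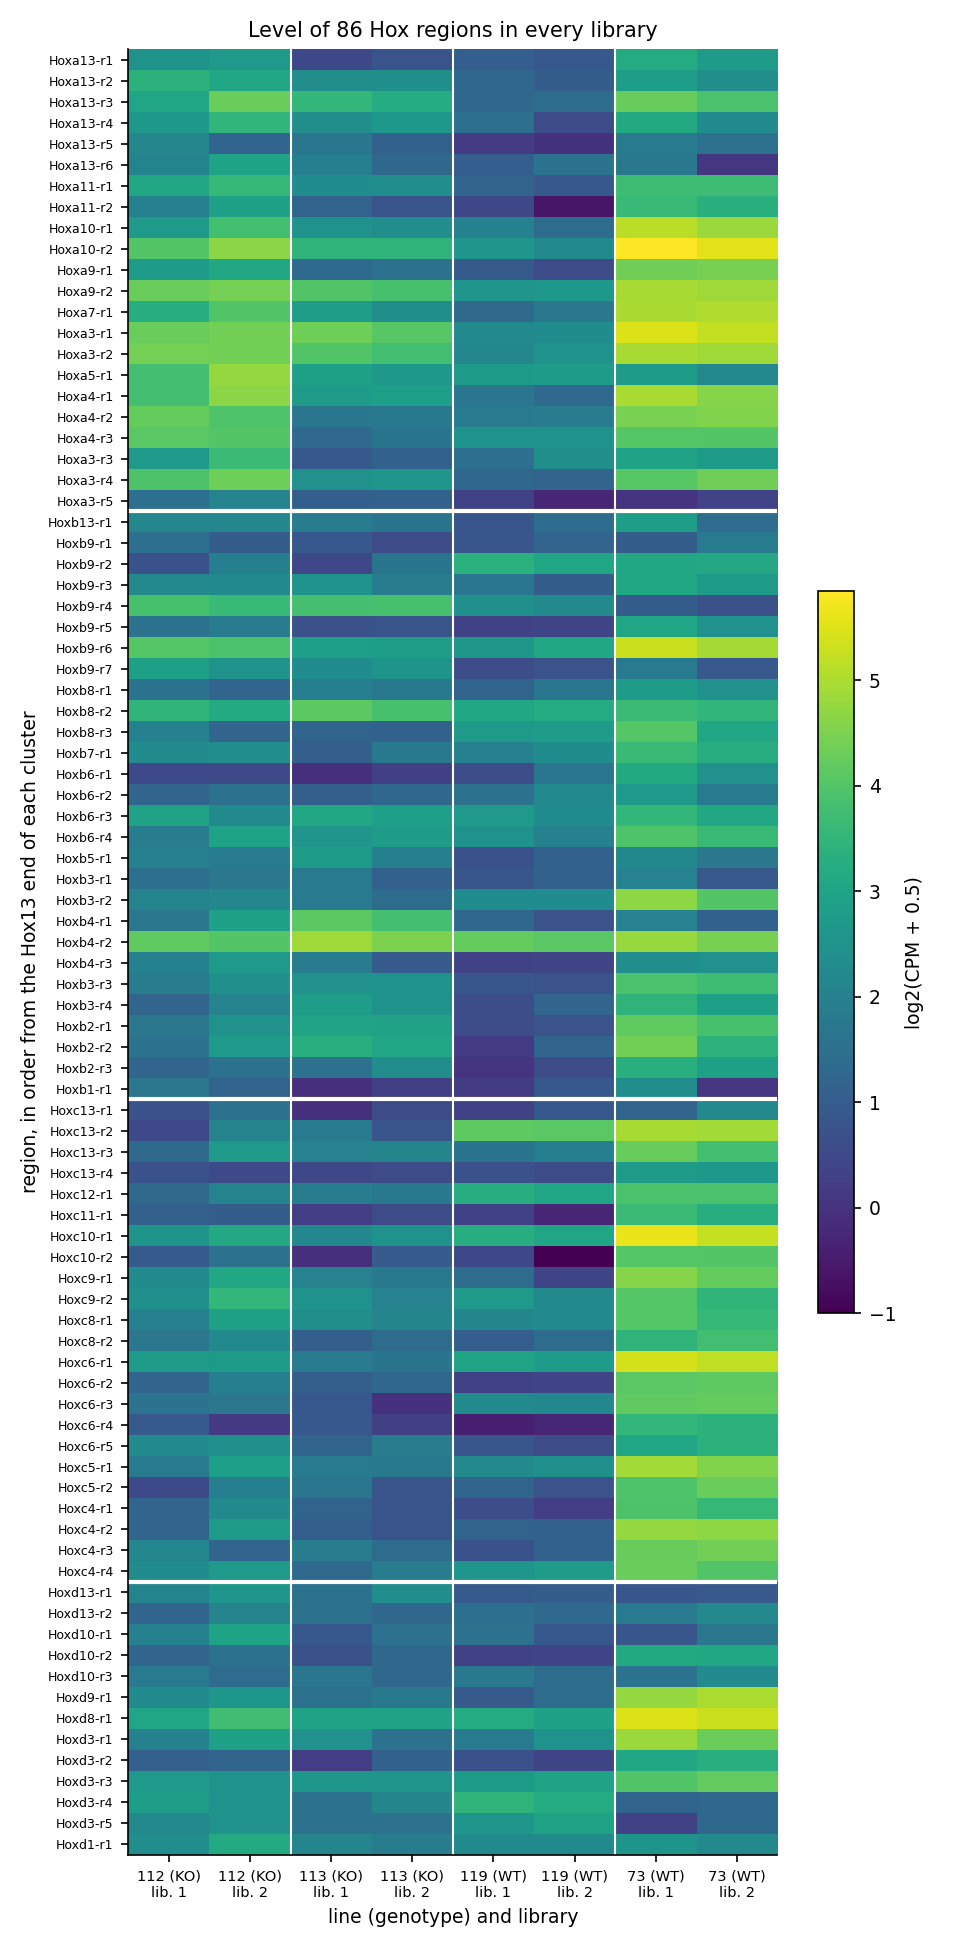
Level of 86 of the 89 Hox regions (rows, from the Hox13 end of each cluster) in all 8 libraries (columns), as log2(CPM + 0.5) in colour. The columns of line 73 are bright in most rows of Hoxc, and Hoxb4-r2, at 15.7 to 29.0 CPM, is bright in every column.

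For the genotype the counts of each line were summed, leaving 2 knockout against 2 wild-type lines. By edgeR's quasi-likelihood test 0 of 88 Hox regions passed the adjusted threshold (0.0% of all regions). At an unadjusted p under 0.05 there were 15 (17% against 16.9% of all regions). Among the 15, the knockout lines were the higher at 3 (3.41% against 8.27%) and the lower at 12 (13.6% against 8.64%). DESeq2's Wald test called 1, Hoxc13-r2 (adjusted p 0.00192; 1.25% against 7.43% of all regions with an adjusted p), and limma-voom on the libraries, with lines as a random effect, called 0 (0.133% of all regions). With single libraries as units, which counts the libraries of a line as independent, edgeR called 14 (15.9% against 22.7% of all regions). In simulated data the test on summed lines found 0% of the changed regions at a 4-fold change and 70.5% at a 16-fold change. The simulation changed 200 of 20000 regions and gave all regions the same spread. A 4-fold difference between genotypes was thus not detectable under those settings. The data differ from them, with 16.9% of all regions at an unadjusted p under 0.05 by edgeR, so recovery in the data may differ too.

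The smallest p belonged to Hoxc13-r2, with 2.19 ± 0.166 CPM over the knockout lines and 23.3 ± 9.01 CPM over the wild-type lines (SD of 2 line means). Its log2 fold change was -3.46 (SE 0.86, p 0.000803, adjusted p 0.143 by edgeR), and the adjusted p ran from 0.00166 to 0.326 over the alternatives. Next among those lower in the knockout lines were Hoxc6-r3 (-2.62, SE 0.98, adjusted p 0.205) and Hoxb6-r1 (-2.46, SE 0.96, adjusted p 0.217). Line 73 held most of the wild-type level in both: Hoxc6-r3 had 17.7 and 18.3 CPM (line 73), 4.39 and 4.05 CPM (line 119), 2.56 and 2.77 CPM (line 112) and 1.36 and 0.484 CPM (line 113), and Hoxb6-r1 had 8.45 and 5 CPM (line 73), 1.03 and 2.7 CPM (line 119), 0.931 and 0.923 CPM (line 112) and 0.453 and 0.726 CPM (line 113). At Hoxb6-r1 line 119 overlapped with neither knockout line, but on counts of only 8 and 16 against 2 to 4. Line 112 over 119 was not called there (-0.92, SE 0.63, adjusted p 0.236 by edgeR). Line 113 over 119 was (-1.56, SE 0.68, adjusted p 0.0435 by edgeR). In the other direction came Hoxb4-r1 (2.22, SE 0.92, adjusted p 0.241), Hoxb9-r4 (2.11, SE 0.9, adjusted p 0.247) and Hoxa3-r5 (1.83, SE 0.86, adjusted p 0.289), all by edgeR. Hoxa3-r5, 446 bp from Hoxa3, was weak, with 1.59 to 3.69 CPM in the knockout and 0.338 to 0.833 CPM in the wild-type libraries.

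At 7 Hox regions each knockout line differed from each wild-type line in the same direction. Higher in the knockout lines were 3, Hoxb9-r4, Hoxb9-r7 and Hoxd13-r1 (3.41% against 7.64% of all regions), and lower were 4, Hoxb9-r2, Hoxb8-r3, Hoxc13-r2 and Hoxc12-r1 (4.55% against 7.41%). Both shares were below the background. Hoxd13-r1 (chr2:74667988-74668488), over the start of Hoxd13 and most of the promoter printed above, had 3.72 and 5.54 CPM (line 112), 2.49 and 4.6 CPM (line 113), 1.42 and 1.52 CPM (line 119) and 1.28 and 1.39 CPM (line 73). It was weak throughout, and the knockout lines overlapped with each other above the wild-type lines. The median log2 fold change of knockout over wild-type lines was -0.09 in Hoxa, -0.33 in Hoxb, -1.97 in Hoxc and -0.39 in Hoxd, against -0.09 over all regions. The Hoxc value had 0 of 23 regions above 0. The Hoxc sums were 411 ± 33.6 CPM in wild-type line 73 and 81.7 ± 4.32 CPM in wild-type line 119, against 84.8 ± 29.4 CPM in knockout line 112 and 52.8 ± 2.84 CPM in knockout line 113 (SD of 2 libraries). Line 119 lay within the range of line 112 and above line 113.

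**Figure D5:**
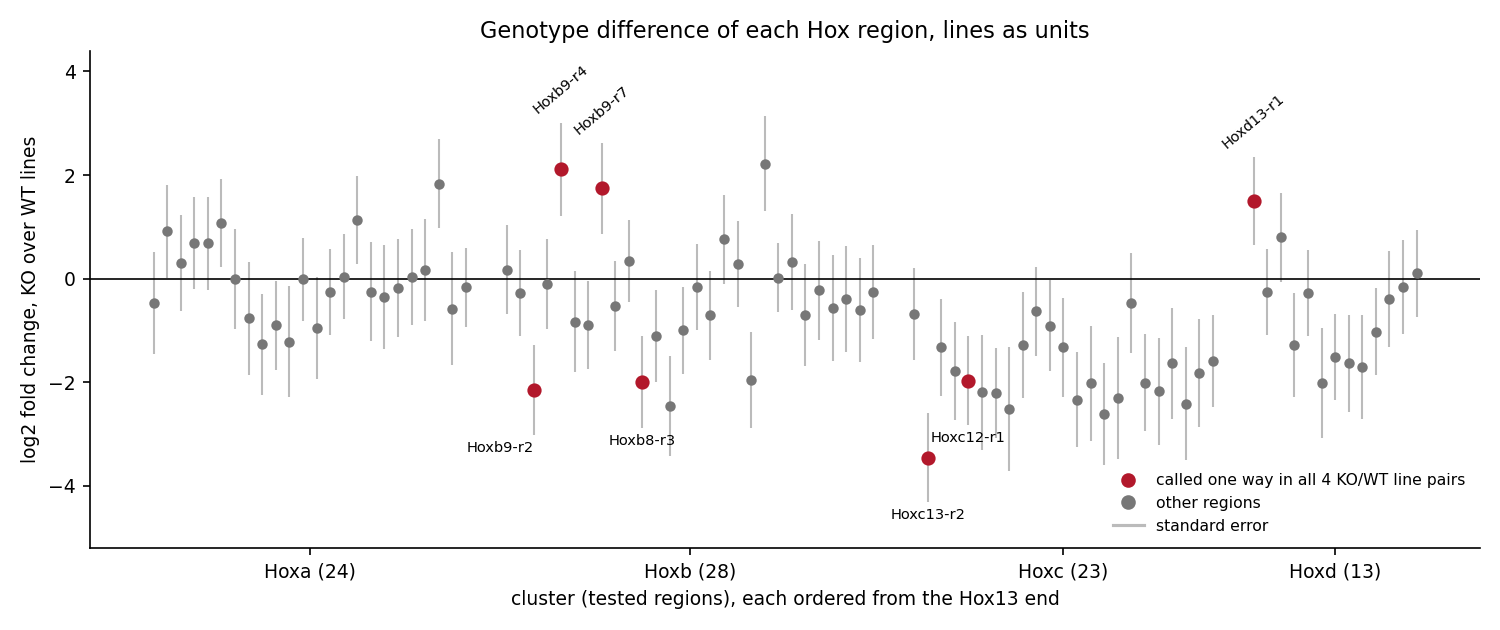
Log2 fold change of knockout over wild-type lines (vertical axis) with its standard error for the 88 tested Hox regions, ordered within each cluster from the Hox13 end. The 7 regions in which each knockout line differed from each wild-type line are marked, all Hoxc values lie below 0, and Hoxc13-r2 is lowest at -3.46.

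The authors' peak calls, deposited per library, overlapped 61 and 54 Hox regions (line 73), 33 and 30 (line 119), 14 and 8 (line 112), and 14 and 16 (line 113). Line 119 had the most peaks in all, 94906 and 85498 against 56497 and 56096 in line 73. At 17 regions both libraries of line 73 and no other library had a peak. Hoxb4-r2 had one in all 8, and 4 regions had none. In Hoxc the knockout libraries had peaks at 0 to 2 of 23 regions, those of line 119 at 9 each and those of line 73 at 18 and 17. Line 112 replicate 2, the library with the fewest counts, also had the fewest peaks, 20387.

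Genes that work with the Hox genes, or lie beside them, were counted from lists. The cofactors Pbx, Meis and Pknox, which bind DNA together with Hox proteins, had 155 tested regions at 9 genes. Of these 21 (13.5%) were higher and 13 (8.39%) lower in line 73 than in each other line, against 13.2% and 10.2% of all regions. The median log2 fold change of line 119 over 73 was 0.11, against -2.34 over the 88 Hox regions and -0.1 over all regions. The chromatin regulators of the Hox genes (Polycomb and trithorax members among them) had 126 tested regions at 20 genes, with 11 (8.73%) higher and 14 (11.1%) lower in line 73 and a median of -0.32. The flanking genes of the clusters had 101 tested regions at 12 genes, with 17 (16.8%) higher and 5 (4.95%) lower in line 73 and a median of -0.76. Of those regions 47.5% were lower and 11.9% higher in line 119 than in line 73, against 29.4% and 27.5% of all regions. Line 119 was lower than each other line at 10.9% and higher at 1.98%, against 4.86% and 11% of all. Line 112 was higher than each other line at 10.9% and lower at 0%, against 1.76% and 1.28% of all. The ParaHox and even-skipped relatives had 15 tested regions at 8 genes, with 2 (13.3%) higher and 2 (13.3%) lower and a median of -0.11. The shares higher in line 73 were 8.73% to 16.8% in these lists, on both sides of the 13.2% of all regions, and 55.7% of the Hox regions.

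Markers of cell types differed between the lines too. The fibroblast list (6 of 6 genes with a region within 1 kb) summed to 174 and 161 CPM in line 73, the line with the most open Hox regions, and to 49.1 to 63.3 CPM in the other 6 libraries. Of its genes the collagen gene Col1a2 had a mean of 37.6 CPM in line 73 and 1.19 to 5.13 CPM in the other lines. Col1a1, Pdgfrb and Dcn were also highest in line 73. Pdgfra had 14.1 CPM in line 73, 15.6 and 17.1 CPM in lines 112 and 113, and 3.41 CPM in line 119. Lum had 0.673 CPM in line 73 and 0.447 to 2.51 CPM in the others. The melanocyte list (6 of 7 genes, none at Pmel) summed to 277 and 242 CPM (line 113), 178 and 149 CPM (line 112), 65.9 and 71.1 CPM (line 119) and 57.6 and 58.1 CPM (line 73). Its pigment genes Dct and Tyr had means of 2.9 and 2.8 CPM (line 73), 5.46 and 5.53 CPM (line 119), 45.7 and 27.1 CPM (line 112) and 94.8 and 37.5 CPM (line 113). Sox10, a neural crest factor, had 6.52 CPM in line 73 and 31.8 to 48.2 CPM in the other lines. Mitf, the melanocyte master regulator, went another way, with means of 39.7 CPM (line 73), 38.7 CPM (line 113), 26.7 CPM (line 112) and 19.5 CPM (line 119). The pigment gene Tyrp1 had means of 4.31 CPM (line 73) and 3.41 CPM (line 119), and the libraries of these lines overlapped. The lymphocyte list (3 of 7 genes, none at Ptprc, Cd79a, Cd4 and Cd8a) summed to 13.3 to 46.4 CPM and was lowest in line 73. The macrophage (2 of 4 genes), endothelial (1 of 4) and keratinocyte (1 of 4) lists summed to 8.1 to 19.5, 3.72 to 11.1 and 0.338 to 6.46 CPM. The part of cell type in the Hox differences was not tested.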

How the data were processed

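ATAC-seq regions were taken from the authors' deposited table of raw counts, whole reads per region in 8 libraries. The authors' deposited peak files add, for each library, a peak score, a fold enrichment over background and −log10 p and q values, and were used here only for whether a peak overlapped a Hox region. How the regions of the count table were merged is not given in the sources used here. Per the submitters' processing notes, the build was mm10 and Bowtie2 2.2.4, Picard 1.118 and MACS2 2.1.1.20160309 were named, without their roles. Per the labels' protocols, fragments above 1200 bp were excluded.

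Regions were assigned to 21883 protein-coding genes of RefSeq (GRCm38.p6) by the nearest gene end. edgeR 4.0.16 (R 4.3.3; TMM scaling, filterByExpr with a minimum count of 10 and a minimum total of 15, robust quasi-likelihood test, Benjamini-Hochberg adjustment over 140329 regions at 0.05) compared 6 pairs of lines over 8 libraries, and the genotypes over counts summed per line. Summed and CPM levels are descriptions. DESeq2 1.42.0 and limma 3.58.1 gave alternatives. On simulated data of 20000 regions with 200 changed, the test of a pair of lines recovered 27% at 2-fold and 98% at 4-fold.

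Regions given in full were the strongest and the least variable per cluster, the 3 with the smallest p per direction between genotypes, and up to 2 per line and direction that differed from each other line. Others named (such as Hoxa4-r1, Hoxb9-r6, Hoxc12-r1, Hoxd9-r1 and Hoxd13-r1) were chosen after their values were seen. The members and lists were chosen with earlier results of these data known. Alternatives were other scalings, tests, filters and distances, a replicate block and leaving out each library. Sequences of the regions themselves are not used here. 1 gene is not reported here by name.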

Additional observations from a re-analysis of the deposited data

Results flagged for a closer look

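Sets of 4 libraries of a genotype were tested for a library far from the other 3 by Dixon's criterion, at the named regions and cluster sums, 48 sets in all. For independent libraries of 1 population chance alone gives about 1 in 20. Each set here joined 2 lines, and sets shared libraries, so that rate need not hold. In all, 2 were found. At Hoxd8-r1, over the start of Hoxd8, line 112 replicate 2 had 12.9 CPM among the knockout libraries, whose others had 7.25 to 7.68 CPM. At Hoxa5-r1, over the start of Hoxa5, line 73 replicate 2 had 4.17 CPM among the wild-type libraries, whose others had 6.2 to 6.4 CPM.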

How the results depend on the processing

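Of the recomputed values, 206 stayed within 1.5 times the reported count or 1 SD of the reported level, 31 moved beyond that and 0 reversed. With DESeq2's Wald test the genotype count was 1, line 112 against 113 gave 15, regions separated by genotype 4, and regions setting line 112 or line 113 apart 1 and 2. With a mean of at least 50 counts, which left 14 Hox regions, the pairs gave 11 (112 against 113), 11 (119 against 73), 9 (112 against 119), 8 (112 against 73), 7 (113 against 119) and 12 (113 against 73). Regions separated by genotype were then 1, and those setting lines 112, 113, 119 and 73 apart 0, 2, 4 and 7. Fewer regions were tested there, and of the 11 calls for line 112 against 113, 6 were among the 24 reported. The abundance-dependent offset gave 1 region for line 112, and libraries as units gave 14 between the genotypes. Within 5 kb of a gene end line 113 had 2, and inside a gene or within 1 kb 4 regions were separated by genotype. The Hoxa log2 ratio of line 73 to 119 was 2.59 with total counts and 2.45 with the chromosome offset, and that offset gave 2.61 for Hoxc and 2.04 for Hoxd (line 73 to 113). The causes of these changes were not tested.

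Leaving out 1 library at a time gave 15 to 29 calls for line 112 against 113, 36 to 52 for 112 against 119, 49 to 60 for 112 against 73, 31 to 42 for 113 against 119, 58 to 66 for 113 against 73, 62 to 72 for 119 against 73, and 0 between the genotypes. Regions separated by genotype were 5 to 7, and those setting lines 112, 113, 119 and 73 apart 1 to 4, 1 to 4, 16 to 22 and 38 to 50. A line left with 1 library is assumed to vary like the others. Deviations of libraries with the same replicate number were not correlated (r from -0.0367 to 0.00386 over regions), so the numbers do not pair the libraries. With a replicate block the pairs gave 24 (112 against 113), 71 (119 against 73), 50 (112 against 119), 62 (112 against 73), 42 (113 against 119) and 65 (113 against 73). The median count over the Hox regions was 12 to 48 in the 8 libraries, and the test of a pair of lines recovered 27% of 2-fold changes in simulated data.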
